A study of Caenorhabditis elegans with 12 samples.

Results

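Short loci of tRNA-like length were taken from small RNA libraries of whole C. elegans hermaphrodites. They are the loci whose exons span 65 to 110 bases and whose counts summed to at least 120 over the 12 libraries, and 341 of the 32238 loci of the count tables met both conditions after 6 further loci were left out by name. The loci were thus selected on measured counts of all strains together. A locus could therefore pass through the strains in which it was high. The 3 members just inside the count threshold were F33D11.15 with 125 counts, C08D8.3 with 126 and B0344.4 with 128, and the 3 loci just outside were C28A5.9 with 117, ZC412.12 with 116 and sls-2.17 with 113.

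The strains were the double mutant age-1(hx546); rde-4(ne301) (age-1; rde-4), rde-4(ne301), age-1(hx546) and N2 wild type (WT), with 3 libraries each. RDE-4 binds double-stranded RNA and works with Dicer in RNAi, and age-1 encodes the PI3K of the insulin/IGF-1 signaling pathway, which hx546 lowers only in part. Libraries of a strain came from separate populations of synchronized young adults, collected before embryos could be seen and grown at 20 °C. RNA was taken from whole worms, so that fewer cells of a type and less RNA per cell cannot be told apart. The mutant alleles were carried by the whole animal. Small RNAs with a 5′ monophosphate were enriched, inserts of 18 to 40 bp were selected, and between 2449703 and 3590005 antisense counts per library resulted. As a check of the labels, known ERGO-1 siRNA targets, whose small RNAs need RDE-4, were listed, and 4 were among the counted loci. Together these had 0 to 6 counts in age-1; rde-4 and 7 to 13 in rde-4, against 1028 to 1455 in age-1 and 925 to 1686 in WT.

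Transfer RNAs (tRNAs) are short, folded, abundant RNAs that carry amino acids to the ribosome. They are transcribed by RNA polymerase III from many gene copies, trimmed at both ends, spliced where they have an intron, and heavily modified. Cleavage of tRNAs gives fragments in the size range of siRNAs and microRNAs, which are found in small RNA libraries of many organisms, and a fragment matches every gene copy with the same sequence.

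Reads were counted on the strand opposite to each locus, so where an RNA gene lies on that strand its own reads were counted. In the Ensembl annotation of build WBcel235, 289 of them lay opposite a tRNA gene, 10 opposite a small nucleolar RNA (snoRNA) gene, 6 opposite a microRNA (miRNA) gene, 3 opposite a tRNA pseudogene and 2 opposite a small nuclear RNA (snRNA) gene. Another gene lay opposite 10 loci, none lay opposite 14, and 7 could not be placed. In the whole table, 352 loci lay opposite a tRNA gene and 344 of these reached 120 counts. The label tRNA-like thus held for most members by the annotation, and not for the others. Each tRNA-opposite locus faced a different tRNA gene, and 276 of the 289 contained it from end to end. Their median width was 88 bases, against a median of 73 bases for the tRNA genes, and the median locus reached 4 bases past the 5′ end and 11 bases past the 3′ end of the tRNA. Of these loci 136 (47.1%) lay on the X chromosome, which carries 43.5% of the 634 annotated tRNA genes.

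The reads lay on the strand of the tRNA. For 277 tRNA-opposite loci the tRNA gene had a row of its own, in which reads antisense to the tRNA were counted. The 277 loci summed to 3727319 counts and the tRNA rows to 1630, so that 99.96% of these counts were tRNA sense reads. The locus exceeded its tRNA row in all 277 pairs, and 53 tRNA rows had 0 counts in all libraries. As an example, K08B5.4 (chromosome X, 16558939 to 16559033, minus strand) summed to 242490 counts and the tRNA gene inside it, K08B5.t2 (16558942 to 16559013, plus strand), to 2. The same held for the snoRNA-opposite loci, with 99.6% of 225450 counts on the snoRNA strand. For loci with such a gene opposite, the values below are therefore levels of reads of that RNA itself.

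The 341 loci held 16.6% of all counts, and the 289 tRNA-opposite loci held 85.9% of these member counts. They were unevenly filled, with a median of 2291 and a maximum of 242490 summed counts. Reads with up to 50 hits had been kept, and many loci had nearly the same counts. Among 229 loci with at least 1000 counts, 161 fell into 38 groups whose loci differed by about the counting noise in every library (mean squared difference over sum of at most 3 for each pair). The variance over mean of the summed counts within a group had a median of 1.15, and was largest in the groups led by K02A4.9 (2.98), F41A4.3 (2.60) and D1009.7 (2.16). Members of 33 of the 38 groups were spread over 2 or more chromosomes. These groups held 75.9% of the member counts. Whether loci of a group share their reads was not tested, since no sequence was used here.

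The largest group had 12 loci on chromosomes I, II, III and X, led by K08B5.4, each with 239908 to 242490 summed counts. It contained M01E10.5, F02D10.11, F27D9.9, F15A8.17, Y53C10A.17, Y53C10A.18, ZK622.6, F01G12.15 and F15A8.15, which with K08B5.4 are the 10 members with the most counts, and held 50.2% of all member counts. The next group, led by F52E10.7, had 6 loci on chromosomes I and X and 9.21% of the member counts. In rde-4 the K08B5.4 group took 10.9%, 7.74% and 7.37% of a library's counts, against 3.08%, 4.54% and 2.61% in WT. In age-1; rde-4 it took 17.6%, 9.96% and 9.05%, against 5.22%, 15.9% and 2.47% in age-1. The replicates of rde-4 lay above those of WT, whereas the second age-1 library reached the level of the age-1; rde-4 libraries.

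All members together took more of the counts in rde-4 than in WT. Their share was 21.9%, 22.0% and 15.5% in the rde-4 libraries, against 8.25%, 10.7% and 6.97% in WT. The means were 19.8% ± 3.73 in rde-4 and 8.64% ± 1.90 in WT (SD, n = 3 each), a ratio of 2.29 with no overlap (two-sided exact permutation test, p = 0.1, the smallest that 3 against 3 libraries can give). In age-1; rde-4 the share was 28.3%, 19.8% and 18.2%, against 11.7%, 25.3% and 7.06% in age-1, so that these strains overlapped. The means were 22.1% ± 5.44 in age-1; rde-4 and 14.7% ± 9.46 in age-1 (ratio 1.51, exact permutation p = 0.3, n = 3 each), and without the second age-1 library the log2 ratio was 1.24 in place of 0.59 (exact permutation p = 0.1). Against WT, age-1 had a ratio of 1.70 (exact permutation p = 0.4), and its log2 ratio was 0.12 without its second library in place of 0.76. Against rde-4, age-1; rde-4 had a ratio of 1.12 (exact permutation p = 0.6), and the direction turned when the K08B5.4 group was left out (log2 ratio -0.17).

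**Figure D1:**
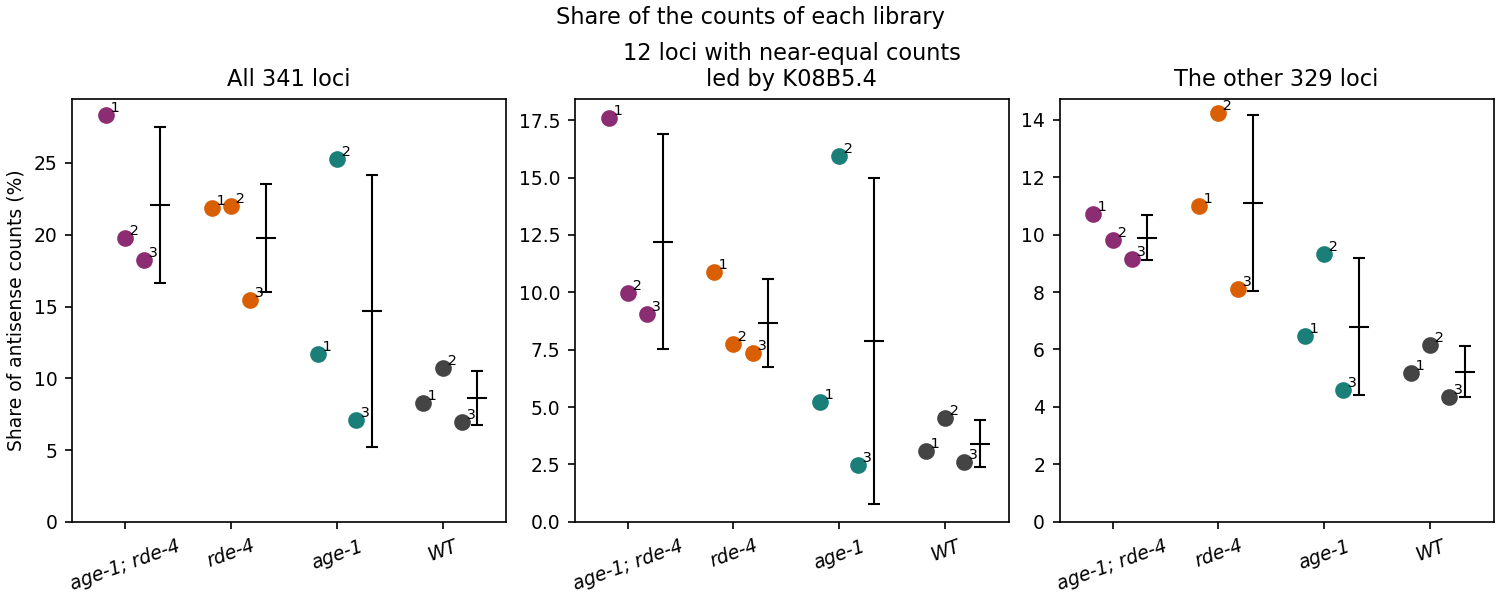
Share of the antisense counts of each library (%) on all 341 loci, on the 12 loci with near-equal counts led by K08B5.4, and on the remaining loci, for 3 libraries of each strain. Points carry the replicate number and bars give mean ± SD. The rde-4 libraries (15.5% to 22.0%) lie above those of WT (6.97% to 10.7%) on all loci, and the second age-1 library (25.3%) stands apart from both others of its strain.

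Some other structured RNAs moved in the same libraries. Loci opposite ribosomal RNA genes took 4.88% to 10.8% of the counts in age-1; rde-4, against 0.983% to 2.01% in age-1, and 2.23% to 3.42% in rde-4, against 1.14% to 1.92% in WT. Loci opposite snRNA genes took 0.198% to 0.346% in age-1; rde-4, against 0.0461% to 0.0657% in age-1, and 0.146% to 0.167% in rde-4, against 0.0790% to 0.111% in WT. Loci opposite miRNA genes took 60.2% to 64.1% in age-1; rde-4, against 59.7% to 76.9% in age-1, so that these overlapped, and 66.1% to 72.9% in rde-4, against 76.4% to 81.6% in WT. Loci opposite snoRNA genes overlapped in both backgrounds. They took 0.448% to 0.636% in age-1; rde-4, against 0.399% to 1.05% in age-1. In rde-4 they took 0.602% to 1.18%, against 0.637% to 1.15% in WT. The part of these shifts in the results on the tRNA-opposite loci was not tested.

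What loss of RDE-4 changes in otherwise wild-type worms was tested locus by locus with edgeR (Benjamini-Hochberg adjusted p under 0.05 over all loci tested). Reads of tRNAs rose with few exceptions: 268 of the 285 tested tRNA-opposite loci were higher in rde-4 and 0 were lower, with a median log2 fold change of 2.16 (range 0.37 to 3.80). Of the members tested, 277 were higher, 3 were lower and 55 did not pass, while 10.8% of all loci tested were higher and 16% were lower. The median over the members was 2.01 and that over all loci tested was 0.06. In 269 members every rde-4 library lay above every WT library, and in 3 every one lay below. The corresponding numbers among all loci tested are not given here. Without the filter on low counts, 264 of all 289 tRNA-opposite loci were higher, while 2.37% of all loci tested were. The number of tRNA-opposite loci called higher ranged between 203 and 280 when single libraries were left out, and it was lowest without the second rde-4 library.

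The same comparison in the age-1 background, which shares no library with the one above, gave like values. Here 278 of 285 tested tRNA-opposite loci were higher in age-1; rde-4 than in age-1 and 0 were lower, with a median of 2.43 (range 0.81 to 4.48). Of the members tested 301 were higher, 2 were lower and 32 did not pass, while 19.1% of all loci tested were higher and 30% were lower. This count depended on the scaling. Scaled by library totals the median of all loci moved by -1.35, and 157 members were higher and 6 lower (46.9% and 1.79%, against 5.67% and 52% of all loci tested). Scaled by the counts opposite miRNA genes that median moved by -1.17, with 169 members higher and 6 lower (50.4% and 1.79%, against 6.2% and 49.9% of all loci). Without the filter on low counts 191 were higher (56%, against 1.73% of all loci), among them 182 of all 289 tRNA-opposite loci. Relative to the median of all loci, the members stood 2.21 higher under the main scaling, 2.19 under library totals, 2.20 under the scaling by miRNA-opposite counts and 1.76 with DESeq2. In the comparison of rde-4 with WT the corresponding values were 1.95, 1.99, 2.01 and 1.86. A change of scaling moves the members and all loci by nearly the same amount. The values under the main scaling, library totals and the miRNA-opposite scaling were thus bound to be alike and are no test of the scaling. There were 14 settings, and some gave no value for a few loci, with 285 of the 289 tRNA-opposite loci tested in each main fit. In every setting that gave them a value, 288 loci had a positive log2 fold change in rde-4 against WT. In age-1; rde-4 against age-1 there were 269 such loci. The calls were less stable, with 178 and 148 loci called higher in all 14 settings, against 268 and 278 in the main fit.

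**Figure D2:**
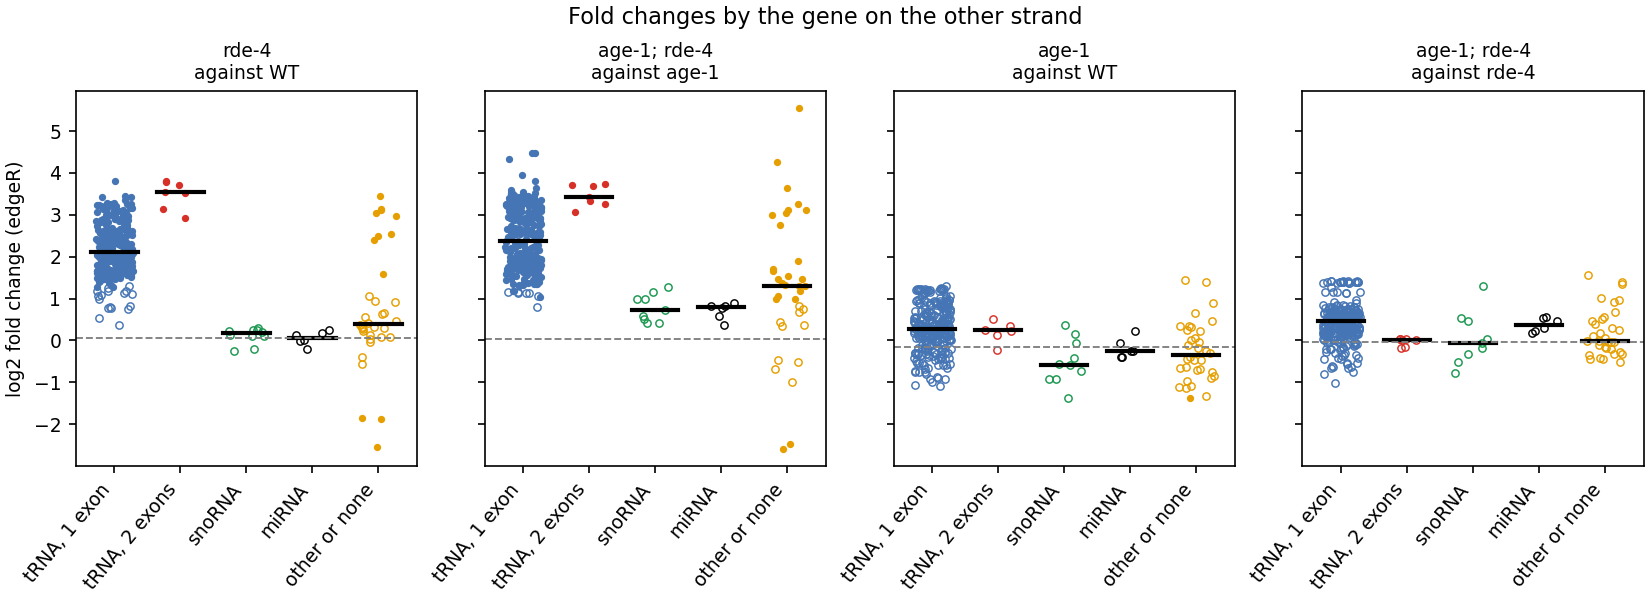
Log2 fold change (edgeR) of each tested locus in the 4 comparisons, by the gene on the other strand. Filled points passed an adjusted p of 0.05, black bars are medians, and the dashed line is the median of all loci tested. Points opposite tRNA genes lie above the line in both comparisons of RDE-4 loss (medians of all tRNA-opposite loci 2.16 and 2.43), and no point opposite a snoRNA or miRNA gene is filled in these.

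The loci kept much of their order between the backgrounds. Over the 282 tRNA-opposite loci tested in both comparisons, 259 were higher in both, 6 only in rde-4 against WT, 16 only in age-1; rde-4 against age-1 and 1 in neither. These counts hold for the main scaling, and the share of all loci called in both is not given here. Under library totals 248 and 148 tRNA-opposite loci were higher in the 2 comparisons. Pearson's r of the log2 fold changes was 0.78 and Spearman's rho was 0.79 across the 282 loci. They can share reads and are not independent replicates, and loci of a comparison share its libraries. The size of the rise had little relation to the level of a locus (r = -0.01 between the log2 count per 100 bases and the log2 fold change in rde-4 against WT). The 1 locus in neither list was K11E4.7, at 0.37 (adjusted p = 0.60) and 0.81 (adjusted p = 0.16). No member passed the test of the difference between the backgrounds (interaction contrast with edgeR, 0 of 341 higher and 0 lower, 13 and 1 at an unadjusted p under 0.05, and 1 higher with DESeq2), while 0.137% of all loci tested were higher and 0.0171% were lower. The sign of the member median depended on the scaling, with 0.21 in this fit, -0.12 under RLE scaling, -0.80 under library totals (1 higher and 39 lower at an unadjusted p under 0.05) and -0.87 under the miRNA-opposite scaling (1 and 40), beside medians of all loci of 0.11, -0.18, -0.91 and -0.93.

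**Figure D3:**
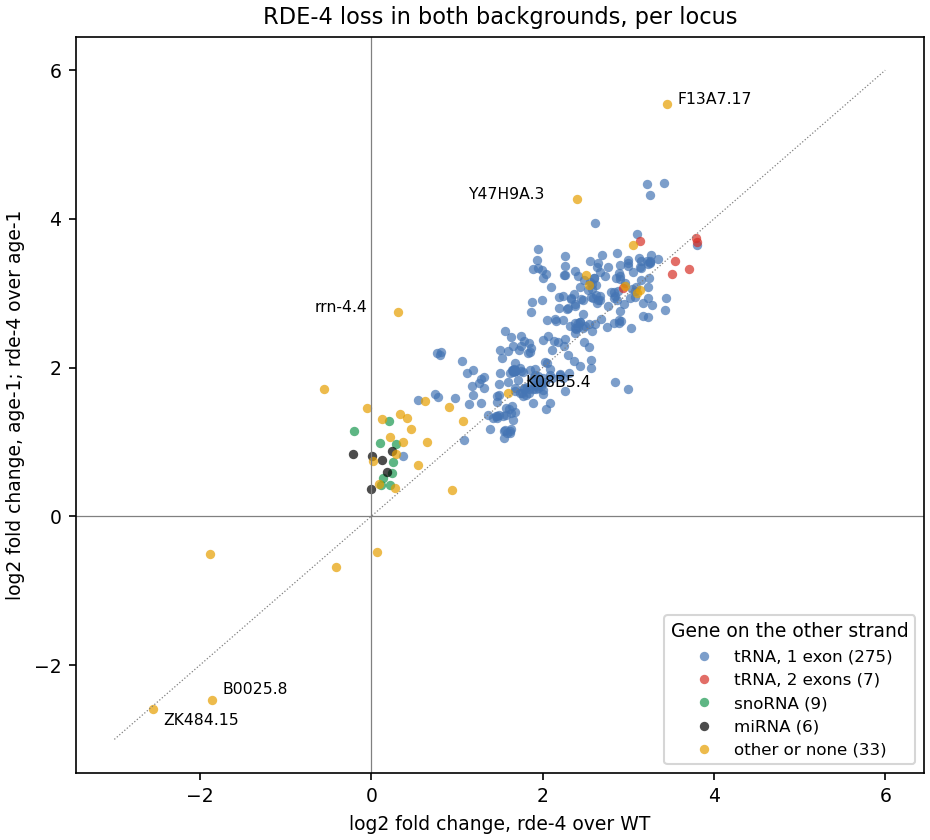
Log2 fold change of age-1; rde-4 over age-1 (vertical) against that of rde-4 over WT (horizontal) for each locus tested in both, colored by the gene on the other strand, with the dotted line marking equal values. Loci opposite tRNA genes with 2 exons lie at the upper end on the horizontal axis, F13A7.17 has the highest value on the vertical axis (5.54), and ZK484.15 and B0025.8 are low in both.

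Values of single tRNA-opposite loci follow. In the age-1 background their size depended on the scaling: C12C8.7 had a log2 fold change of 3.65 under the main scaling, 2.32 when scaled by library totals and 2.48 when scaled by miRNA-opposite counts. C12C8.7 (chromosome I, opposite C12C8.t3) had 206, 384 and 124 counts in rde-4, against 18, 32 and 16 in WT, and 200, 292 and 235 counts in age-1; rde-4, against 47, 54 and 50 in age-1. The groups did not overlap in either background, and the log2 fold changes were 3.80 (SE 0.51, adjusted p = 5.8e-05) and 3.65 (SE 0.39, adjusted p = 1.5e-06). F22F1.6 (chromosome X, opposite F22F1.t6) had 959, 1190 and 1250 counts in age-1; rde-4, against 139, 142 and 115 in age-1, and 689, 1896 and 825 in rde-4, against 104, 170 and 135 in WT. It rose by 4.48 (SE 0.43) and 3.42 (SE 0.49) on the log2 scale. Together with F38E9.7 and Y22D7AL.17, which had near-equal counts and rose by 4.47 and 4.33 in age-1; rde-4 against age-1, it formed the group with the largest summed rise in that background (4.53).

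Some of the largest rises in rde-4 were opposite tRNA genes with an intron. Of the 289 tRNA genes, 7 were annotated with 2 exons and an intron of 11 bases, and all 7 loci opposite them were higher in both comparisons. This split was made after the values were seen, and at least Y43F4A.6 and C02B4.8 had near-equal counts. Their median log2 fold change was 3.55 in rde-4 against WT (range 2.93 to 3.80), while the 278 tested loci opposite tRNA genes with 1 exon had a median of 2.11. In age-1; rde-4 against age-1 the medians were 3.43 for loci opposite tRNA genes with 2 exons and 2.36 for those with 1. As an example, C16D9.13 (chromosome V, opposite C16D9.t4) had 2629, 5645 and 1696 counts in rde-4, against 246, 470 and 215 in WT, and 1569, 3028 and 2088 counts in age-1; rde-4, against 496, 412 and 426 in age-1. ZK1067.10 (chromosome II, opposite ZK1067.t1) had 1121, 2428 and 699 counts in rde-4, against 101, 181 and 117 in WT, and rose with a log2 value of 3.79 (SE 0.53, adjusted p = 7.9e-05). The chromosome made little difference, with a median of 2.16 for tRNA-opposite loci on X and 2.16 for those on autosomes in rde-4 against WT.

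At the other end stood loci with small or uncalled differences. C01C4.5 (chromosome X, opposite C02F12.t1) had 835, 1108 and 873 counts in rde-4, against 707, 802 and 584 in WT. Every rde-4 library was the higher one, but the log2 fold change of 0.74 (SE 0.40, adjusted p = 0.22) did not pass. In age-1; rde-4 it had 478, 819 and 595 counts, against 445, 375 and 764 in age-1, and after scaling it passed (1.65, SE 0.39, adjusted p = 0.0022), which was lost under library totals (0.29), under the miRNA-opposite scaling (0.50) and without the filter (1.03). Besides K11E4.7, the tRNA-opposite loci that did not pass in age-1; rde-4 against age-1 were R04E5.17, Y39G10AL.5, C06B8.15, T22A3.11, B0244.13 and ZC132.10, with log2 fold changes of 1.06 to 1.16. The most abundant tRNA reads were also among the smaller rises. K08B5.4 had 25865, 16042 and 15889 counts in rde-4, against 7049, 10434 and 5653 in WT. Its log2 fold change was 1.68 (SE 0.43, adjusted p = 0.0071), and the call was lost without the first rde-4 library (1.35, adjusted p = 0.059) and in the fit on all 12 libraries (1.69, adjusted p = 0.056). In age-1; rde-4 it had 47282, 24486 and 22941 counts, against 12628, 47985 and 6236 in age-1, and rose by 1.96 (SE 0.70, adjusted p = 0.028). That call was lost under library totals (0.63, adjusted p = 0.41), under the scaling by miRNA-opposite counts (0.68, adjusted p = 0.42), without the filter on low counts (1.23, adjusted p = 0.53), with DESeq2 (1.48, adjusted p = 0.10), and when age-1 replicate 1, age-1 replicate 3 or age-1; rde-4 replicate 1 was left out (1.22 to 1.56).

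**Figure D4:**
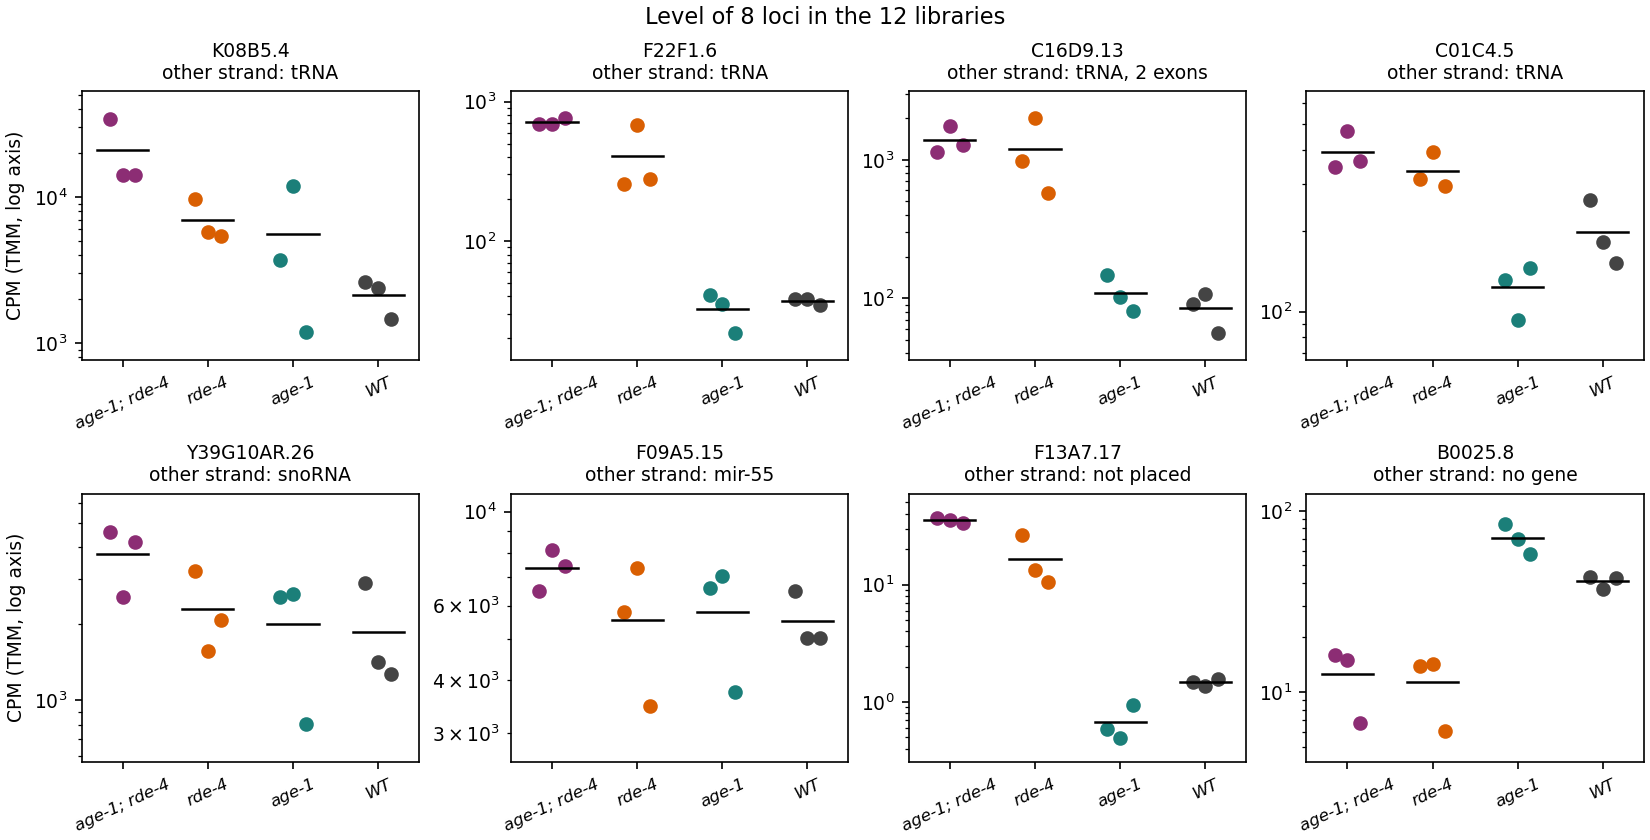
Level (CPM after TMM scaling of the 12 libraries, log axis) of 8 loci in each library, with horizontal bars at the strain means. The tRNA-opposite loci F22F1.6 and C16D9.13 and the unplaced F13A7.17 are higher, and B0025.8 is lower, in every rde-4 and age-1; rde-4 library than in every age-1 and WT library. The libraries overlap for K08B5.4 and for the loci opposite a snoRNA gene and mir-55.

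With loci of near-equal counts summed to 1 row each, 37 of 38 groups were higher in rde-4 than in WT and 38 of 38 higher in age-1; rde-4 than in age-1, and 0 were lower in either. The first count was 35 to 37 with library totals, miRNA-opposite scaling, DESeq2 or no filter, alternatives chosen after seeing the data. The second was 25 under library totals, 26 under the miRNA-opposite scaling, 30 with DESeq2 and 27 without the filter, and the smallest group value was -0.21 under library totals. In the main fits of single loci, 10.8% and 19.1% of all loci tested were higher. Under these 4 alternatives the shares were 2.37% to 9.03% in the first comparison and 1.73% to 6.2% in the second. Grouped loci had at least 1000 counts over all strains, so a group could qualify through the strains in which it was high. The log2 fold changes of the groups ran between 0.80 (C01C4.5) and 3.67 (Y43F4A.6) in rde-4 against WT. Next to these came C16C8.24 (3.32) and F22F1.6 (3.34) at the upper end, and H06A10.3 (1.56) and F02H6.72 (1.59) at the lower end. In age-1; rde-4 against age-1 they ran between 1.23 (B0244.13) and 4.53 (F22F1.6), with K09C8.11 (3.61) and T08A9.15 (3.52) next highest and Y39G10AL.5 (1.24) and H06A10.3 (1.44) next lowest. The 10 groups with the most counts rose in rde-4 against WT by 1.71 (K08B5.4), 1.71 (F52E10.7), 1.66 (B0244.13), 2.62 (T01B4.7), 3.29 (T08A9.15), 2.57 (F38E9.10), 2.91 (Y55F3BR.16), 1.88 (F22F1.7), 1.61 (Y39G10AL.5) and 2.40 (T05A8.9). In the interaction contrast 0 of 38 groups passed, with the highest values in R09E10.15 (1.34), F22F1.6 (1.07) and H35N09.3 (0.95) and the lowest in B0244.13 (-0.59), C16C8.24 (-0.54) and Y39G10AL.5 (-0.53).

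The groups fell into different patterns among replicates. The second age-1 library had 4.87 times the mean CPM of the other age-1 libraries in the K08B5.4 group and 4.79 times in the F52E10.7 group, and it was more than 2-fold higher in 11 of the 38 groups. In 13 groups it was below that mean, down to 0.62 times in the Y37A1B.334 group and 0.63 times in the F38E9.10 group. The second rde-4 library was above the first in 33 of the 38 groups, up to 2.60 times in the F22F1.6 group, and below it in the other groups, with 0.58 times in the K08B5.4 group. Single tRNA-opposite loci showed the same, with 247 of 289 higher in the second than in the first rde-4 library. Groups thus varied in opposite directions between libraries of 1 strain.

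**Figure D5:**
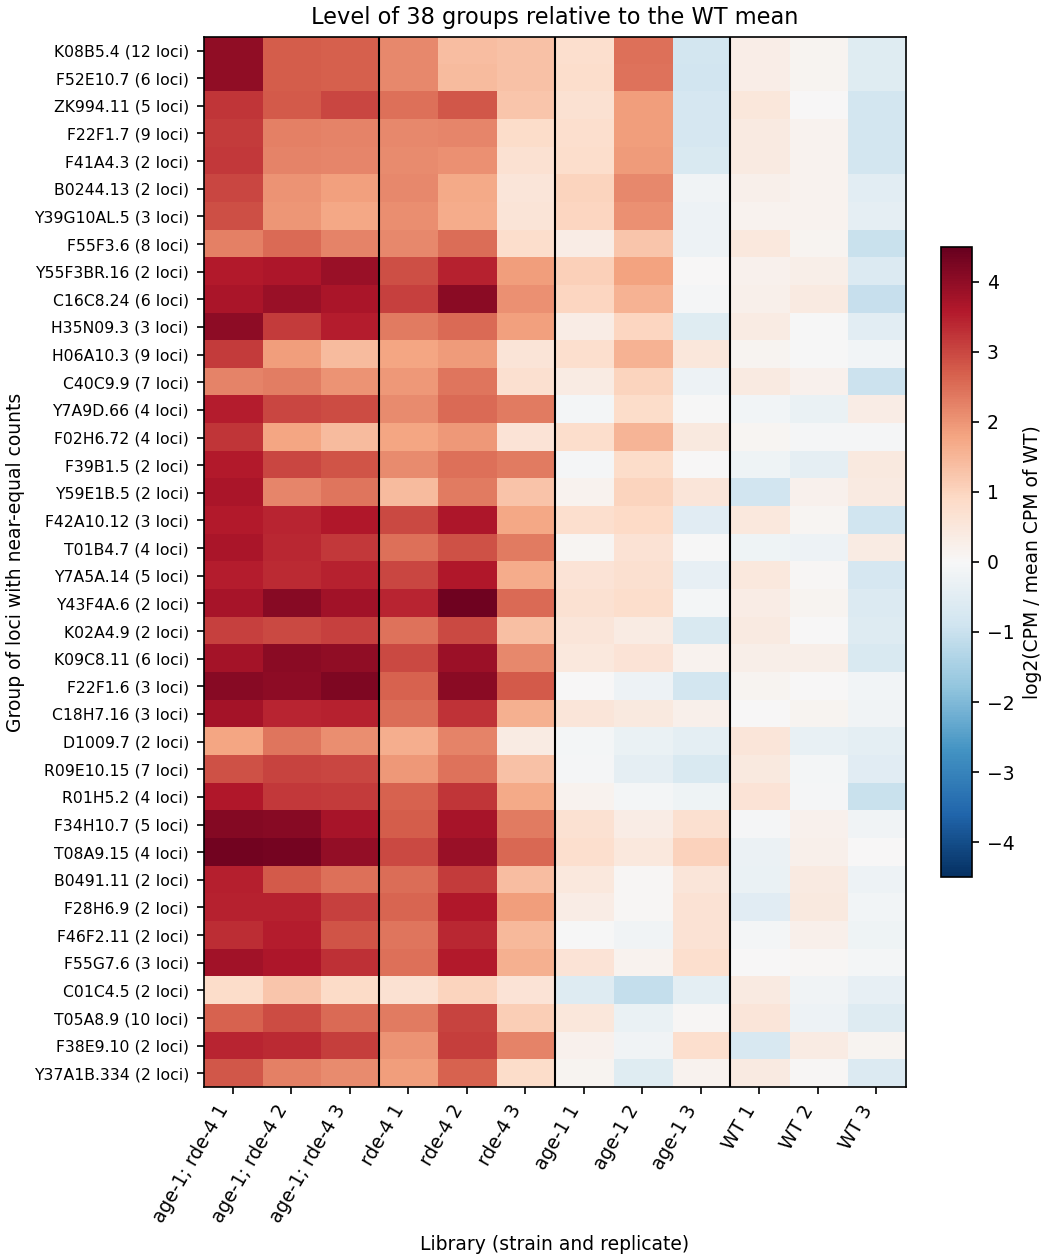
Level of the 38 groups of loci with near-equal counts (rows, named by the locus with the most counts) in each of the 12 libraries (columns), as log2 of the CPM over the mean CPM in WT. Rows are ordered by the ratio of the second age-1 library to the mean of the other age-1 libraries, from 4.87 at the top to 0.62 at the bottom. The columns of age-1; rde-4 and rde-4 are red in nearly all rows, and the second age-1 column is a stronger red in the upper rows than in the lower rows, where it is pale red or blue.

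Reduced age-1 function gave smaller and less stable values. In age-1 against WT 0 of 323 members tested were higher and 1 was lower with edgeR (30 higher and 14 lower at an unadjusted p under 0.05), while 7.66% of all loci tested were higher and 3.28% were lower. The member median was 0.23 and the median of all loci tested was -0.17. With DESeq2 32 members were higher (11.4% of those tested, against 30.2% of all loci tested), without the filter on low counts 20 (5.87%, against 3.58% of all loci), and 65 without age-1 replicate 3 (20% against 21.7% of all loci), which had the smallest share of member counts of its strain (7.06%). With the replicate number as a block, since same-numbered libraries of these strains deviated together, 31 members were higher (9.6%, against 21.7% of all loci tested) and 20 lower (6.19%, against 17.5% of all loci tested). The higher ones were 28 tRNA-opposite loci, among them C12C8.7 (0.91, adjusted p = 0.027) and Y40H7A.308 (1.19, adjusted p = 0.0033), with 3 loci of other kinds. The lower ones were 10 tRNA-opposite loci, among them C01C4.5 (-0.80, adjusted p = 0.038), and 10 loci of other kinds. The member called without the block was T19B4.8, a snoRNA gene read on its antisense strand, with 17, 13 and 17 counts in age-1, against 31, 33 and 33 in WT (-1.38, SE 0.38, adjusted p = 0.040). Its partner on the other strand, T19B4.9, whose counts are sense reads of that snoRNA, had 20672 summed counts against 316 for T19B4.8. The call held under RLE scaling, with the block and without the third age-1 library, and was lost in the other alternatives run (adjusted p 0.059 to 0.21).

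In age-1; rde-4 against rde-4, 0 of 337 members were higher and 0 lower with edgeR (38 and 0 at an unadjusted p under 0.05), while 0.531% of all loci tested were higher and 0.335% were lower. The member median of 0.40 changed sign under library totals, where it was -0.48 and 12 members (3.56%) and 28.4% of all loci were lower. It also changed sign under scaling by miRNA-opposite counts (-0.36, with 1 member and 13.9% of all loci lower). With DESeq2, 28 members (8.43%) and 2.89% of all loci were higher. With the replicate number as a block, 29 members (8.61%) and 2.93% of all loci were higher, and 0 members and 2.12% of all loci were lower. The K08B5.4 group stood at 1.40 and the F52E10.7 group at 1.39, followed by H35N09.3 (1.17), and C01C4.5 (0.04), Y43F4A.6 (0.08) and C40C9.9 (0.19) were lowest, with 0 of 38 groups called. In age-1 against WT the K08B5.4 (1.26), F52E10.7 (1.25) and B0244.13 (1.19) groups were likewise highest and C01C4.5 (-0.74), R09E10.15 (-0.45) and F22F1.6 (-0.40) lowest, with 0 of 38 groups called.

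Small nucleolar RNAs guide chemical modification of ribosomal RNA in the nucleolus. Of 10 snoRNA-opposite loci in rde-4 against WT, 0 were called by edgeR or DESeq2 and 0 had an unadjusted p under 0.05, with log2 fold changes of -0.24 to 0.29. Y39G10AR.26 (opposite Y39G10AR.24) had 8615, 4370 and 6109 counts in rde-4, against 7845, 6211 and 4886 in WT. H09I01.4 (opposite H09I01.2) had 9450, 3137 and 7006 counts in rde-4, against 9783, 6491 and 5371 in WT. The libraries overlapped for both. In age-1; rde-4 against age-1 0 of 9 were called by edgeR, with 1 at an unadjusted p under 0.05, and 0 of 10 by DESeq2. Their median there was 0.74 under the main scaling and -0.58 under library totals, so that no direction can be given.

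Precursors of miRNAs are hairpins cut by Dicer. Of 6 miRNA-opposite loci, 0 were called in either comparison of RDE-4 loss by edgeR or DESeq2, and 0 in rde-4 against WT and 2 in age-1; rde-4 against age-1 had an unadjusted p under 0.05. F09A5.15 (opposite mir-55) had 15468, 20711 and 10294 counts in rde-4, against 17543, 22161 and 19414 in WT. C32D5.15 (opposite mir-60) had 9939, 7116 and 12648 counts in rde-4, against 16958, 14375 and 10061 in WT, and ZK525.4 (opposite mir-46) had 9976, 10693 and 7605 counts in rde-4, against 10732, 13292 and 8532 in WT. All 3 overlapped, with log2 fold changes of -0.22 to 0.13. Their median over the 6 loci in age-1; rde-4 against age-1 was 0.79 under the main scaling and -0.55 under library totals. Both loci opposite snRNA genes of the SL2 trans-spliced leader, R12E2.18 and Y75B8A.49, were higher in age-1; rde-4 than in age-1 (1.71 and 1.46) with edgeR, and neither was called under library totals or with DESeq2.

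The other members were of mixed kinds. Among 14 loci with no gene opposite, B0334.12, a snoRNA gene itself and read on its antisense strand, had the most counts. It did not pass in either comparison (0.27, adjusted p = 0.79, and 0.38, adjusted p = 0.50). F22F1.10, F08F1.16 and R09E10.16, annotated as non-coding RNAs, were higher in both, and R09E10.16 lost its call in age-1; rde-4 against age-1 with library totals (0.35), with miRNA-opposite scaling (0.51), with DESeq2 (1.32) and without the filter (1.03). F22F1.10 had 822, 1433 and 402 counts in rde-4, against 152, 191 and 84 in WT, and 668, 759 and 823 counts in age-1; rde-4, against 236, 295 and 149 in age-1. F13A7.17, one of the 7 loci not placed in the Ensembl annotation, had 51, 62 and 55 counts in age-1; rde-4, against 2, 2 and 5 in age-1, and 70, 37 and 31 in rde-4, against 4, 6 and 6 in WT. It had the largest rise of all members in the age-1 background (5.54, SE 0.49, adjusted p = 3.0e-07, and 3.46, SE 0.47 in rde-4 against WT). F13A7.17 reached the count threshold of the members only through the strains without RDE-4, where it was high. C36C9.7 and ZK484.14, also not placed, rose by 3.11 and 2.50 in rde-4 and by 3.00 and 3.25 in age-1; rde-4. Of 3 loci opposite tRNA pseudogenes, F46F2.11 and W01H2.5 rose in both comparisons. W01H2.5 had 281 summed counts and could have reached the count threshold through the strains without RDE-4, where it was high. Y51B9A.13 rose in age-1; rde-4 against age-1 (1.37, adjusted p = 0.028) and stood at 0.33 in rde-4 against WT. Its call was lost under library totals (-0.00087), under the miRNA-opposite scaling (0.21), with DESeq2 (0.99), without the filter (0.72), in the fit on all libraries (1.36) and when age-1 replicate 2 or 3 or age-1; rde-4 replicate 1 or 3 was left out (0.99 to 1.28).

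Reads antisense to a tRNA gene itself were few. F28H6.t1 and F29C4.t1 are tRNA genes that reached the count threshold as loci, with 146 and 130 summed counts. In rde-4 against WT they stood at 0.29 (adjusted p = 0.73) and -0.04 (adjusted p = 0.97), and in age-1; rde-4 against age-1 F29C4.t1 was higher (1.46, adjusted p = 0.039), a call lost under library totals (0.11), under the miRNA-opposite scaling (0.28), with DESeq2 (1.18), without the filter (0.85) and when age-1 replicate 1 or 2 or age-1; rde-4 replicate 1 or 2 was left out (1.09 to 1.54), while F28H6.t1 had too few counts for the test. The loci on the other strand, F28H6.9 and F29C4.12, which count sense reads of the same tRNA genes, had 4402 and 4348.

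Of the members, 3 were lower in rde-4 than in WT, and 2 of these were also lower in age-1; rde-4 than in age-1. B0025.8 (chromosome I, 6024143 to 6024233), a non-coding RNA with no gene opposite, had 37, 40 and 18 counts in rde-4, against 117, 163 and 165 in WT, and 22, 26 and 11 counts in age-1; rde-4, against 285, 280 and 305 in age-1. It fell by 1.86 (SE 0.40, adjusted p = 0.0020) and by 2.47 (SE 0.41, adjusted p = 9.2e-05) on the log2 scale. ZK484.15, not placed, had 4, 3 and 4 counts in rde-4, against 24, 23 and 36 in WT, and 5, 3 and 4 counts in age-1; rde-4, against 77, 54 and 60 in age-1. It fell by 2.55 (SE 0.47, adjusted p = 0.00063) and by 2.59 (SE 0.50, adjusted p = 0.00040). ZK484.15 reached the count threshold of the members only through WT and age-1, where it was high. Y57G11C.1145, a snoRNA gene read on its antisense strand, had 68, 36 and 79 counts in rde-4, against 300, 204 and 314 in WT (-1.88, SE 0.45, adjusted p = 0.0042). In age-1; rde-4 it had 69, 37 and 36 counts, against 246, 66 and 229 in age-1 (-0.51, adjusted p = 0.39, and -1.95, adjusted p = 0.0028 under library totals).

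Antisense counts of a ribosomal RNA locus changed in the double mutant. rrn-4.4 is annotated as an rRNA gene with no gene opposite, so its counts are reads antisense to that gene and not reads of the rRNA. It had 1135, 2293 and 2129 counts in age-1; rde-4, against 696, 793 and 625 in age-1. In rde-4 it had 907, 866 and 1058 counts, against 900, 965 and 964 in WT. The log2 fold changes were 2.75 (SE 0.43, adjusted p = 4.4e-05) in the age-1 background and 0.31 (SE 0.39, adjusted p = 0.66) in the WT background. Their difference of 2.40 (SE 0.58) did not pass with edgeR (adjusted p = 0.12), passed with DESeq2 (2.04, adjusted p = 0.0022) and with the replicate block (2.41, adjusted p = 0.038), and had adjusted p of 0.13 to 0.49 under the other alternatives. In these libraries the share of rRNA-opposite counts was also higher, as given above, and its part in the rise was not tested. Y47H9A.3, a non-coding RNA, had 112, 278 and 160 counts in age-1; rde-4, against 36, 17 and 19 in age-1 (4.26, SE 0.48), and 131, 130 and 61 in rde-4, against 40, 16 and 16 in WT (2.40, SE 0.53), and the interaction (1.82, adjusted p = 0.51) did not pass.

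Antisense reads of genes that act on tRNAs were counted in the same tables. Of 21 listed genes of cytosolic aminoacyl-tRNA synthetases, the enzymes that load tRNAs with amino acids, 20 were among the counted loci. In rde-4 against WT 12 had enough counts for the test, and 0 passed. In age-1; rde-4 against age-1, 5 were tested and yars-1, the tyrosyl-tRNA synthetase, was higher, while 19.1% of all loci tested were higher. In age-1 against WT yars-1 was the 1 of 11 that was lower, while 3.28% of all loci were, and in age-1; rde-4 against rde-4, 0 of 8 passed. Of 12 genes of tRNA transcription, processing and modification, 5 were tested in rde-4 against WT and 0 passed, and rpc-1, a subunit of RNA polymerase III, was the 1 tested in age-1; rde-4 against age-1 and was higher.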

How the data were processed

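Counts of antisense reads per gene were deposited by the authors as raw counts in 3 tables, neither normalized nor pooled. The authors mapped small RNA reads to the C. elegans genome (WBcel235, RefSeq annotation) with Bowtie through QuasR, keeping reads with up to 50 hits, and counted reads on the strand opposite to each gene. The sources used here give no tool versions. The 6 columns found in 2 tables (WT and age-1) were identical, with 0 differing values, and were read once. Entries without a gene name numbered 0. The tables hold 34662942 counts, 2449703 to 3590005 per library, and counting error limits the precision of low loci. The tables also give the exon width of each gene.

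Genes on the other strand were taken from Ensembl release 115, and loci with a name used for several genes were placed through RefSeq where its kind and position allowed. Each comparison was fitted on its own libraries with edgeR's quasi-likelihood F test (version 4.0.16, R version 4.3.3, TMM, filterByExpr, Benjamini-Hochberg over all loci tested, threshold 0.05), and the interaction on all 12. SE come from the F statistic. Shares were compared by two-sided exact permutation tests (Python 3.11.15). Alternatives were DESeq2 1.42.0, RLE factors, library totals, scaling by miRNA-opposite counts, no filter, a replicate block, a fit on all 12 libraries and leaving out each library. The scripts were tested on simulated data.

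Loci with at least 1000 counts were grouped where the counts of each pair were nearly equal over all libraries (mean squared difference over sum of at most 3). This replaced the planned families of tRNA genes with identical sequence, since no genome sequence was used. Named were the 10 loci with the most counts, the 4 with the smallest adjusted p in each direction and comparison, the 6 largest without a tRNA gene opposite, those nearest the threshold, the 10 largest groups and 3 extremes a comparison, and the 3 groups with the most spread. Other loci were named after their values were seen. The members and lists were chosen with earlier results of these data known. Same-numbered libraries deviated together in rde-4 and WT (r = 0.29, 0.17 and 0.37 over all loci) and in age-1 and WT (r = 0.31, 0.19 and 0.34), so that their numbers were taken to pair them.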

Additional observations from a re-analysis of the deposited data

How the results depend on the processing

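Near-equal counts of many loci and 3 libraries a strain limit what these data can show. Families of tRNA genes with identical sequence were not run, since no sequence was used, and near-equal counts took their place. Leaving out single libraries gave 211 to 290 members higher and 3 lower in rde-4 against WT, 245 to 294 higher and 2 lower in age-1; rde-4 against age-1, 0 to 65 higher and 0 to 2 lower in age-1 against WT, 0 to 1 higher and 0 lower in age-1; rde-4 against rde-4, and 0 in the interaction. The member medians ranged over 1.77 to 2.33, 2.03 to 2.47, 0.06 to 0.39 and 0.24 to 0.77 in the same order, and the log2 ratios of the shares over 1.06 to 1.38, 0.26 to 1.24, 0.12 to 1.10 and -0.058 to 0.28. Among the other alternatives, age-1; rde-4 against age-1 had 157 higher and 6 lower members under library totals (median 0.87), 169 and 6 under scaling by miRNA-opposite counts (median 1.05), 191 higher without a filter, and a median of 1.87 with DESeq2. Of all loci tested, 5.67%, 6.2% and 1.73% were higher and 52%, 49.9% and 7.3% lower under library totals, miRNA-opposite scaling and no filter. In age-1 against WT 4 members were higher under the miRNA-opposite scaling, 32 with DESeq2, 20 without a filter and 1 in the fit on all libraries, and 0 were lower under library totals, the miRNA-opposite scaling, DESeq2, no filter and the fit on all libraries. In age-1; rde-4 against rde-4 the median was -0.48 under library totals (12 lower) and -0.36 under the miRNA-opposite scaling (1 lower), 28 were higher with DESeq2 and 1 in the fit on all libraries, and the share reversed to -0.17 without the K08B5.4 group. The interaction had 1 higher member with DESeq2, rrn-4.4. Of the groups of near-equal counts, 25 were higher with library totals and 26 with miRNA-opposite scaling in age-1; rde-4 against age-1, in place of 38. With these loci summed, chosen after seeing the data, 155, 188, 1 and 1 rows were higher in the 4 comparisons, out of fewer rows. With the replicate block 31 members were higher and 20 lower in age-1 against WT and 1 was higher in the interaction. In age-1; rde-4 against rde-4 29 were higher (8.61%, against 2.93% of all loci tested). Counts stayed within 1.5 times in both comparisons of RDE-4 loss (288 and 306 higher). The numbers did not pair the libraries of age-1; rde-4 and age-1 (r = 0.18, -0.16 and 0.14). For age-1; rde-4 and rde-4 the pairing was weak over all loci (r = 0.24, 0.067 and 0.12). Over the members it was clearer (r = 0.39, 0.46 and 0.23), and each of these values exceeded the r with libraries of other numbers.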
